A study of Arabidopsis thaliana with 18 samples.

Results

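RALF-like genes encode rapid alkalinization factors, small secreted signalling peptides of plants. They were taken as the probe sets annotated to a single gene whose symbol is RALF or RALFL followed by a number, and were selected on their measured level: a probe set was kept where at least 3 of the 18 arrays exceeded their own 40th percentile of signal. Of the 22746 probe sets of the array, 11 met the first condition and 7 met both. The 7 were RALFL22 (AT3G05490), RALFL24 (AT3G23805), RALFL27 (AT3G29780), RALFL31 (AT4G13950), RALFL32 (AT4G14010), RALFL33 (AT4G15800) and RALFL34 (AT5G67070). The RefSeq gene table lists 34 genes of this naming, and those without a probe set of a single gene, RALF1 and RALFL23 among them, are not analysed here.

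RALF peptides are made as longer precursors, and some of them, such as the precursor of RALF23, are cut by the site-1 protease S1P. Outside the cell they bind receptor kinases of the FERONIA family and wall proteins of the leucine-rich repeat extensin family, and they raise the pH of the cell wall, which slows cell expansion. In Arabidopsis the family is known for roles in root growth, in the integrity of growing pollen tubes and in immune signalling, where RALF23 and RALF33 dampen the oxidative burst through FERONIA. RALF34 is a known ligand of the receptor kinase THESEUS1.

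The study measured transcripts on the Affymetrix ATH1 array in Arabidopsis thaliana plants of the accession ws-2 at developmental stage 3.90. The 6 groups were roots and shoots of caesium-treated plants, of potassium-starved plants and of control plants, with 3 arrays each. All groups shared a medium of 1/10 strength MS salts with 0.8% agar and 1% sucrose, a growth room at 22 °C and 80% humidity, and a day of 16 h. The caesium dose, the length of the treatments and the number of plants behind an array are unknown from the sources used here. No label states that replicates came from separate cultures, so p-values measure only how far these arrays differ, a spread that may be technical.

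The signals were MAS5 intensities on a linear scale in arbitrary units, with array medians between 33.0 and 45.4. Arrays of a group correlated at r = 0.918 to 0.970 over all probe sets, and no arrays were identical. Of 8 photosynthetic marker genes 5 had a probe set, and their summed signal was 135 to 451 in the roots, against 8013 to 14483 in the shoots. The only one of 8 root markers with a probe set, the beta-glucosidase gene PYK10, read 1915 to 3501 in the roots and 46.9 to 1199.7 in the shoots. Of 8 root hair markers 2 had a probe set, and their summed signal was 128 to 214 in roots and 30.4 to 53.2 in shoots. Each array measures a whole organ, so fewer cells of a type and less RNA per cell cannot be told apart.

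The 7 kept genes differed in how many arrays passed the level set by the rule, which was 25.9 to 28.8 in roots and 21.6 to 29.4 in shoots. RALFL22, RALFL33 and RALFL34 exceeded it on all 18 arrays, RALFL32 on 17 and RALFL24 on 16. RALFL31 exceeded it on 12 arrays (3 of roots and 9 of shoots) and RALFL27 on 9, all of them roots. The 4 dropped genes exceeded it on 0 of 18 arrays: RALFL18 read 2.19 to 14.2, RALFL25 0.459 to 11.4, RALFL26 0.411 to 6.06 and RALFL28 0.367 to 7.56. The gap between RALFL27, the kept gene with the fewest arrays, and these 4 was therefore 9 arrays wide.

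**Figure D1:**
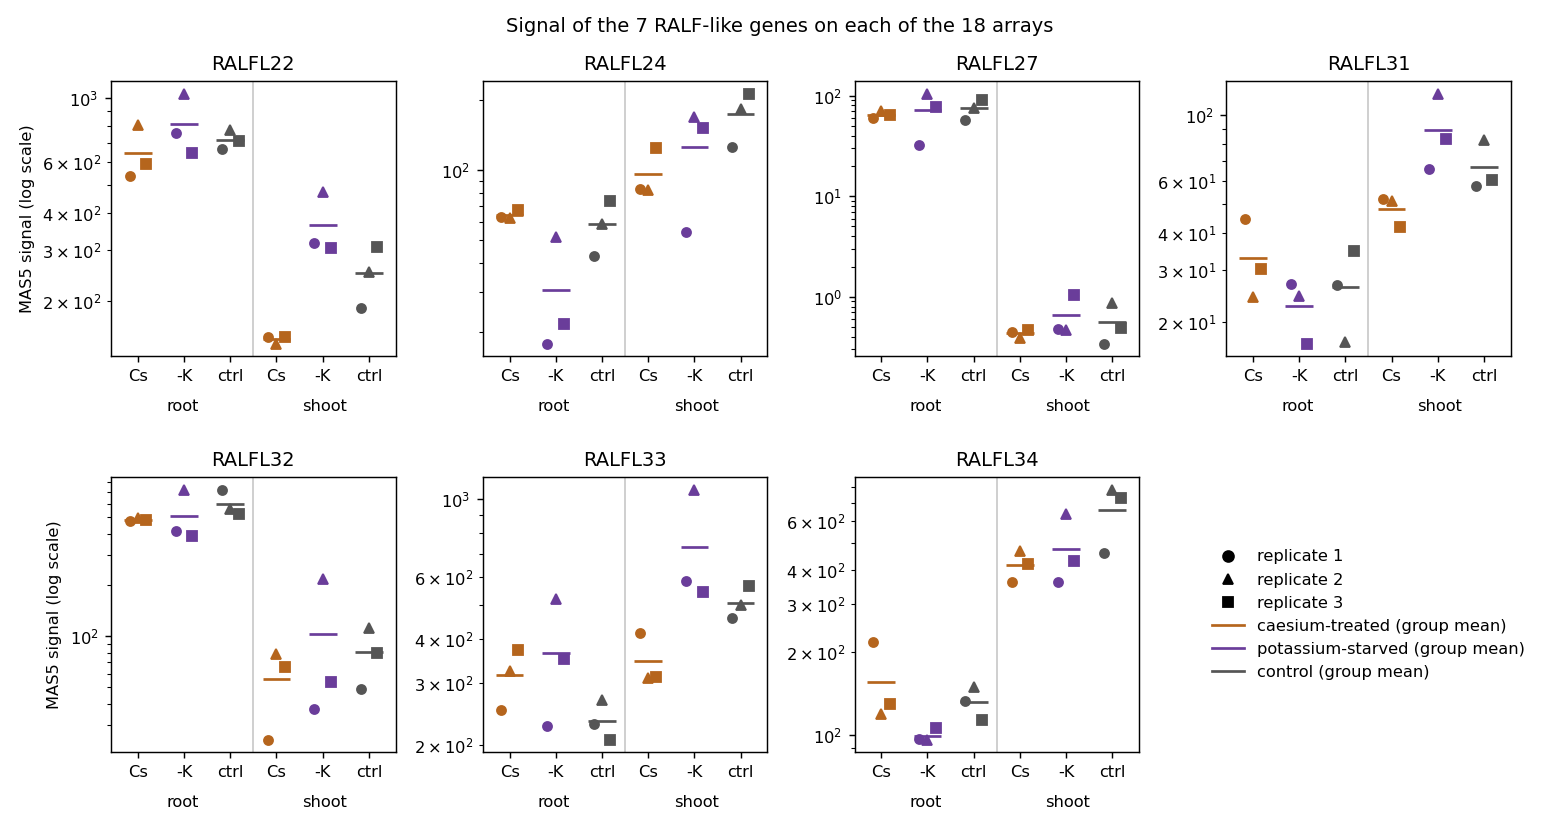
MAS5 signal (log axis, a separate scale for each gene) of the 7 RALF-like genes on the 18 arrays, with roots left of shoots and caesium-treated (Cs), potassium-starved (-K) and control (ctrl) groups in that order. Each symbol is an array, shaped by replicate number, and each bar is the mean of 3 arrays; RALFL22 and RALFL32 lie higher in roots and RALFL34 lower in roots on every array.

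The RALF-like genes were first compared between organs. RALFL32 and RALFL22 had a higher signal on each of the 9 root arrays than on any of the 9 shoot arrays, and RALFL34 had a lower signal on each root array. The share of all probe sets with the organs apart in this way was not computed, so the separation is not read as particular to these genes. RALFL27 was kept through its 9 root arrays alone, so its organ pattern was fixed by the rule and is not counted here. RALFL24, RALFL31 and RALFL33 also fell in control roots relative to shoots, but their ranges over the 9 root and 9 shoot arrays overlapped. All 6 genes tested differed between control roots and control shoots by limma at a Benjamini-Hochberg adjusted p under 0.05, 2 of them higher and 4 lower. Over all 16397 probe sets tested 53.1% passed, 30.6% higher and 22.5% lower, so such a difference was common on this array. These shares include probe sets that passed the filter through a single organ, as RALFL27 did, so the sets compared are not alike.

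RALFL32 read 725, 556 and 522 in control roots, against 48.9, 112 and 79.6 in control shoots. The groups lay far apart, with a log2 difference of 2.97 ± 0.523 (SE, n = 3 each), which is 7.84-fold, and an adjusted p of 0.000126. In potassium-starved roots it read 412, 722 and 389, and in caesium-treated roots 476, 496 and 478. In potassium-starved shoots it read 37.2, 217 and 53.9, and in caesium-treated shoots 24.6, 78.1 and 65.5. Within each shoot group replicate 2 was the highest and replicate 1 the lowest for RALFL32. PYK10 had the same order in the shoots, at 129, 949 and 420.0 in caesium-treated, 46.9, 903 and 521 in potassium-starved and 173, 1199.7 and 279 in control shoots, and its part in the RALFL32 values was not tested.

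RALFL22 read 663, 776 and 707 in control roots, and 189, 252 and 306 in control shoots. The root arrays were all above the shoot arrays, by 1.55 ± 0.218 on the log2 scale (2.92-fold, adjusted p = 1.22e-05, n = 3 each). Its order of group means was potassium-starved root (809.9 ± 200.4, SD), control root (715 ± 56.8), caesium-treated root (645 ± 143), potassium-starved shoot (365 ± 94.1), control shoot (249 ± 58.2) and caesium-treated shoot (148 ± 4.58). Neighbours in that order overlapped except at the step between organs and at the step between control and caesium-treated shoots.

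RALFL27 read 57.7, 74.9 and 91.0 in control roots, against 0.343, 0.863 and 0.488 in control shoots. It passed the rule only through its root arrays, so the values are given with no fold change and no test, and the shoot values were far under the level of the rule. Caesium-treated roots read 59.9, 70.6 and 63.4 and potassium-starved roots 31.9, 105 and 77.0. The root groups overlapped one another, and no shoot array of any treatment exceeded 1.04.

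RALFL34 was the gene with the largest shoot bias. It read 133, 149.9 and 114 in control roots, against 460.3, 780.4 and 728 in control shoots, a log2 difference of -2.28 ± 0.250 (4.86-fold lower in roots, adjusted p = 6.28e-07, n = 3 each). The order of its means ran through control shoot (656 ± 172, SD), potassium-starved shoot (474 ± 143), caesium-treated shoot (416 ± 53.7), caesium-treated root (156 ± 54.1), control root (132 ± 17.9) and potassium-starved root (99.8 ± 5.57). The step between organs and the step between control and potassium-starved roots had no overlap, and the other neighbours overlapped.

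RALFL24, RALFL31 and RALFL33 were higher in shoots by smaller steps. RALFL24 read 42.9, 58.8 and 73.7 in control roots, against 126, 183 and 214 in control shoots, which is 2.98-fold lower in roots (log2 -1.58 ± 0.410 SE, adjusted p = 0.00368). RALFL31 read 26.6, 17.0 and 34.7 in control roots and 57.3, 82.1 and 60.4 in control shoots, and fell by 1.39 in roots on the log2 scale (SE 0.301, adjusted p = 0.000843). These control groups did not overlap for either gene. For RALFL31 only 1 of the 3 control root arrays exceeded the level of the rule, so the size of its fall is uncertain. RALFL33 read 229, 267 and 206 in control roots and 459, 499 and 566 in control shoots, 2.17-fold lower in roots (log2 -1.12 ± 0.279, adjusted p = 0.00265). Its control organs did not overlap, whereas caesium-treated roots at 251 to 373 overlapped caesium-treated shoots at 310.2 to 417.

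**Figure D2:**
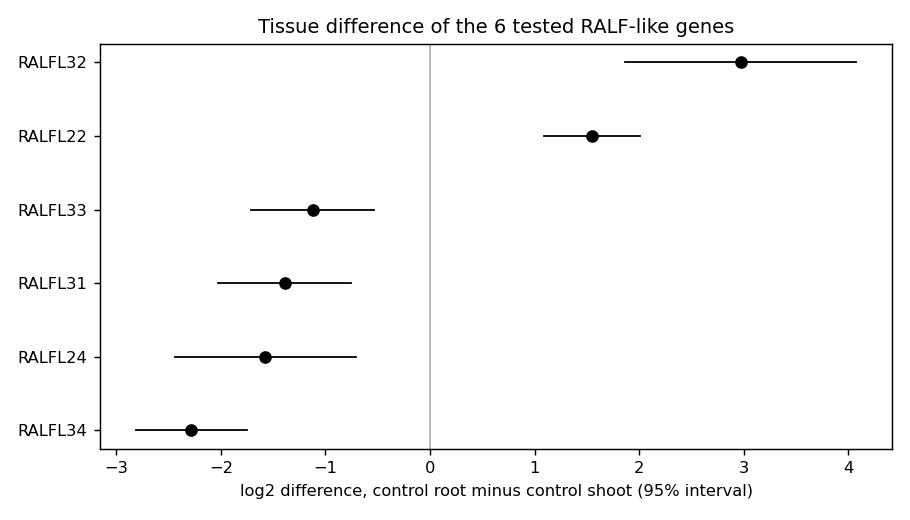
Log2 difference of control root minus control shoot for the 6 RALF-like genes that were tested, with 95% intervals from limma. RALFL32 and RALFL22 lie right of 0 and RALFL33, RALFL31, RALFL24 and RALFL34 left of 0.

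Between treatments, without the replicate number as a block, the only changes that passed the test were in shoots. There RALFL22, RALFL33 and RALFL31 fell in caesium-treated plants relative to potassium-starved plants. They were 3 of 6 genes tested, all lower, while over all 14665 probe sets 26.8% passed and 8.84% passed as lower. The same 3 were the genes whose groups did not overlap, beside 15.7% of all probe sets with lower, non-overlapping groups. All 6 RALF-like differences were below 0, with a median of -0.72 on the log2 scale, beside a median of 0.16 over all probe sets tested. Shifting each array to a common median moved that median over all probe sets to -0.11, and the 6 stayed below 0 and the 3 calls were made under that scaling too. The common sign depended on potassium-starved shoot replicate 2, since without it RALFL32 was at 0.16 and RALFL24 at 0.06. For RALFL34, at -0.15 with all arrays, the value without that array is not given here. The 3 shoot comparisons share arrays, so their results are not independent of one another.

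RALFL22 read 150.2, 142 and 150.4 in caesium-treated shoots, against 316, 473 and 305 in potassium-starved shoots. The caesium-treated arrays lay close together and all under the lowest potassium-starved array. The gene fell by 1.28 on the log2 scale (SE 0.229, 95% interval -1.78 to -0.77), which is 2.42-fold lower, with an adjusted p of 0.00479. This call was made with each of the 6 arrays left out in turn.

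RALFL33, whose peptide dampens immune signalling with that of RALF23, read 417, 310.2 and 313 in caesium-treated shoots, against 586, 1066 and 543 in potassium-starved shoots. The groups did not overlap, and replicate 2 of the potassium-starved shoots stood well above its partners. The gene fell by 1.02 on the log2 scale (SE 0.254, 2.03-fold lower, adjusted p = 0.0164, n = 3 each). Without caesium-treated shoot replicate 2 the adjusted p was 0.0518, and without replicate 3 it was 0.0563.

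RALFL31 read 52.1, 51.0 and 41.7 in caesium-treated shoots, against 65.6, 118 and 83.0 in potassium-starved shoots. The highest caesium-treated array was under the lowest potassium-starved array. It fell by 0.85 on the log2 scale (SE 0.243, 1.80-fold lower, adjusted p = 0.0284, n = 3 each), the least firm of the 3 calls. The adjusted p passed 0.05 without caesium-treated shoot replicate 1 (0.0616), replicate 2 (0.0589) or replicate 3 (0.0953), and without potassium-starved shoot replicate 2 (0.0865).

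Of the genes not called in that comparison, RALFL32 differed by -0.60 (95% interval -1.99 to 0.79, adjusted p = 0.506) and RALFL24 by -0.24 (-1.12 to 0.64, adjusted p = 0.684). Both intervals are wide, and replicates 1 and 2 of the potassium-starved shoots were far apart for both genes. RALFL24 read 82.8, 82.5 and 124 in caesium-treated shoots and 54.3, 169.8 and 152 in potassium-starved shoots. Without potassium-starved shoot replicate 2 these differences turned to 0.16 for RALFL32 and 0.06 for RALFL24. RALFL34 read 361, 468 and 419 in caesium-treated shoots, against 359, 634 and 428 in potassium-starved shoots, and these groups overlapped.

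Against control shoots, caesium-treated shoots had no RALF-like gene past the test, with 0 of 6 called beside 0.566% of all probe sets. An unadjusted p under 0.05 by limma was seen for 2, and the share of all probe sets at that p was not computed. The 6 differences were nevertheless all below 0, with a median of -0.61 beside 0.03 over all probe sets. For 4 genes, RALFL22, RALFL24, RALFL31 and RALFL33, every caesium-treated array was under every control array, against 10.5% of all probe sets with lower, non-overlapping groups. RALFL22 gave the smallest p, at 150.2, 142 and 150.4 in caesium-treated shoots and 189, 252 and 306 in control shoots, a log2 difference of -0.73 ± 0.229 (SE, adjusted p = 0.166). RALFL34 followed with -0.63 ± 0.258 (adjusted p = 0.294), and its groups overlapped at the lowest control array of 460.3. With arrays weighted by their quality 3 genes passed, RALFL22 (adjusted p = 0.0177), RALFL33 (0.0396) and RALFL34 (0.0482), all lower. The share of all probe sets passing under those weights is not given here, and the 0.566% belongs to the unweighted fit. The photosynthetic marker sum was 9490 to 12671 in caesium-treated shoots and 12620 to 14483 in control shoots, and its part in these values was not tested.

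Without a replicate block, potassium-starved shoots had no called RALF-like gene against control shoots, 0 of 6 beside 28.1% of all probe sets. An unadjusted p under 0.05 by limma was seen for 1, again with no share over all probe sets computed. None of the 6 had groups that did not overlap, which 42.7% of all probe sets had. RALFL22 read 316, 473 and 305 in potassium-starved shoots, against 189, 252 and 306 in control shoots, a log2 difference of 0.55 ± 0.229 (SE, 95% interval 0.04 to 1.05, adjusted p = 0.0962). RALFL34 read 359, 634 and 428 in potassium-starved shoots and 460.3, 780.4 and 728 in control shoots, a log2 difference of -0.47 ± 0.258 with an adjusted p of 0.191. With the replicate number as a block, which the pairing of the shoot arrays allows, RALFL34 reached an adjusted p of 0.0405. Here 4 of the 6 differences were above 0 and 2 below, with a median of 0.20 beside -0.14 over all probe sets, a value that a common array median moved to 0.01. RALFL32, counted among the 4, was at 0.000348 and turned to -0.40 under array weights. The photosynthetic marker sum was 8013 to 10280 in potassium-starved shoots, under its 12620 to 14483 in control shoots, and its part in these values was not tested.

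**Figure D3:**
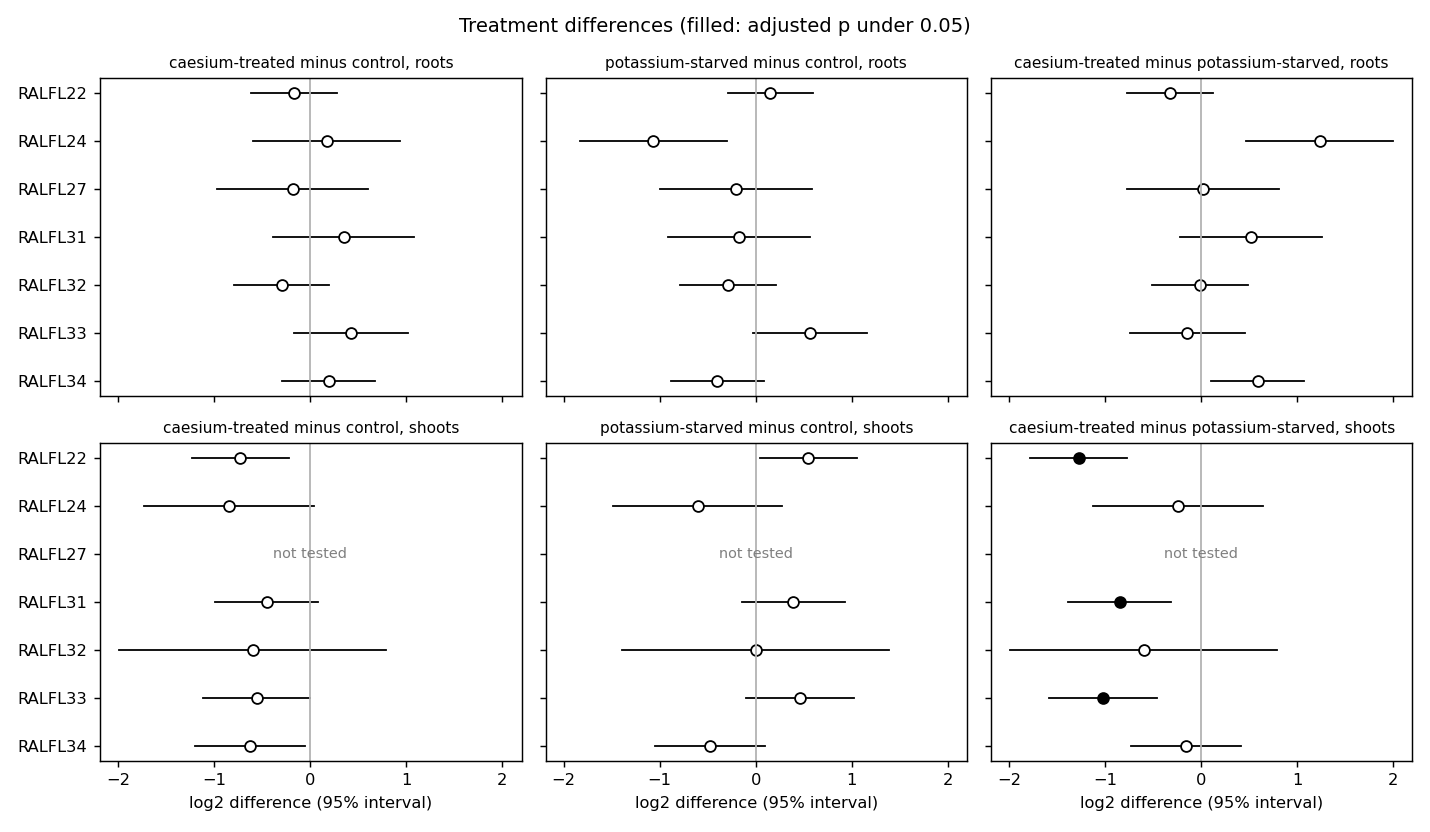
Log2 differences with 95% intervals for each RALF-like gene between treatments, roots in the upper row and shoots in the lower row, with filled points for an adjusted p under 0.05. Only RALFL22, RALFL31 and RALFL33 in caesium-treated minus potassium-starved shoots are filled, and all 6 points of caesium-treated minus control shoots lie left of 0.

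In roots no RALF-like gene passed the test in any treatment comparison. The background was low as well: 1.09% of 14432 probe sets passed between potassium-starved and control roots, 0 passed between caesium-treated and control roots, and 4.54% passed between caesium-treated and potassium-starved roots. Among the 7 genes an unadjusted p under 0.05 was seen for 1, 0 and 2 of them in these comparisons by limma. The shares of all probe sets at that p were not computed. RALFL24 had the largest differences. It read 62.7, 62.5 and 67.7 in caesium-treated roots, 17.9, 51.7 and 21.9 in potassium-starved roots and 42.9, 58.8 and 73.7 in control roots, so that 2 of the 3 potassium-starved arrays were low and under the level of the rule.

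For potassium-starved against control roots RALFL24 gave a log2 difference of -1.07 ± 0.348 (SE, adjusted p = 0.15), and the groups overlapped through potassium-starved replicate 2. Without that array the difference was -1.53 and the adjusted p 0.0441. For caesium-treated against potassium-starved roots it gave 1.24 ± 0.348 (adjusted p = 0.0662), with no overlap between the groups. Without potassium-starved root replicate 2 this became 1.70 with an adjusted p of 0.0184. With that array kept, RALFL24 also passed between caesium-treated and potassium-starved roots under array weights (adjusted p = 0.00535) and a replicate block (0.0329), and between potassium-starved and control roots under array weights (0.0217). Deviations of same-numbered caesium-treated and potassium-starved root arrays correlated at 0.086 to 0.254, not all above 0.1. Whether the numbers pair the root arrays is uncertain, which limits the block result.

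RALFL34 read 218, 119.6 and 129.7 in caesium-treated roots, 96.9, 96.3 and 106 in potassium-starved roots and 133, 149.9 and 114 in control roots. The potassium-starved arrays were the lowest and overlapped neither other group, and RALFL34 was the 1 gene lower without overlap against control roots, beside 12% of all probe sets. The log2 difference was 0.59 ± 0.219 for caesium-treated against potassium-starved roots (SE, adjusted p = 0.131). RALFL24 and RALFL34 were the 2 genes whose groups did not overlap in that comparison, both higher in caesium-treated roots, beside 16.3% of all probe sets.

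RALFL33 read 251, 325 and 373 in caesium-treated roots, 226, 520.2 and 349.6 in potassium-starved roots and 229, 267 and 206 in control roots. Its ranges overlapped in all 3 pairs. The log2 difference from control roots was 0.42 ± 0.271 under caesium (adjusted p = 0.653) and 0.57 ± 0.271 under potassium starvation (adjusted p = 0.297). RALFL32 differed by -0.30 ± 0.226 between caesium-treated and control roots (95% interval -0.80 to 0.20, adjusted p = 0.713), and it was the 1 gene of that comparison whose groups did not overlap, beside 7.73% of all probe sets with lower, non-overlapping groups. RALFL22 read 537, 808 and 590.1 in caesium-treated roots and 754, 1032 and 643 in potassium-starved roots, and all its root groups overlapped. RALFL31 read 44.6, 24.1 and 30.1 in caesium-treated and 26.7, 24.4 and 16.8 in potassium-starved roots, values at the edge of the rule's level, where only 3 root arrays passed.

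Whether a response differed between organs was tested as an interaction over all 18 arrays. RALFL27 is left out, since its shoot arrays were all under the level of the rule. For caesium, root minus shoot, 0 of 6 genes passed beside 0.14% of all probe sets. An unadjusted p under 0.05 by limma was seen for 2, with no share over all probe sets computed. All 6 values were above 0, with a median of 0.81 beside -0.02 over all probe sets. RALFL33 gave 0.99 ± 0.394 (SE, adjusted p = 0.408) and RALFL34 gave 0.82 ± 0.353 (adjusted p = 0.466). For potassium starvation 0 of 6 genes passed beside 8.37%, with none at an unadjusted p under 0.05 by limma. RALFL31 had the smallest p there, at -0.57 ± 0.425 (adjusted p = 0.436), followed by RALFL22 at -0.39 ± 0.308 (adjusted p = 0.456), and the sign of RALFL33 and RALFL34 changed with the scaling.

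The genes shared part of their spread between arrays of a group. In potassium-starved shoots replicate 2 was the highest array for 6 of the 7 genes, with RALFL27, near 0 in shoots, as the exception. In potassium-starved roots replicate 2 was the highest for 5 of 7 genes, and in control shoots replicate 1 was the lowest for 7 of 7. No replicate took such a place for more than 4 of 7 genes in the other 3 groups. This spread stood beside the called differences, since potassium-starved shoot replicate 2 held the highest values of RALFL22, RALFL31 and RALFL33 in shoots. That array also had the lowest median signal of all arrays, at 33.0, and the lowest 40th percentile, at 21.6. The part of this low median in the values was not tested.

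**Figure D4:**
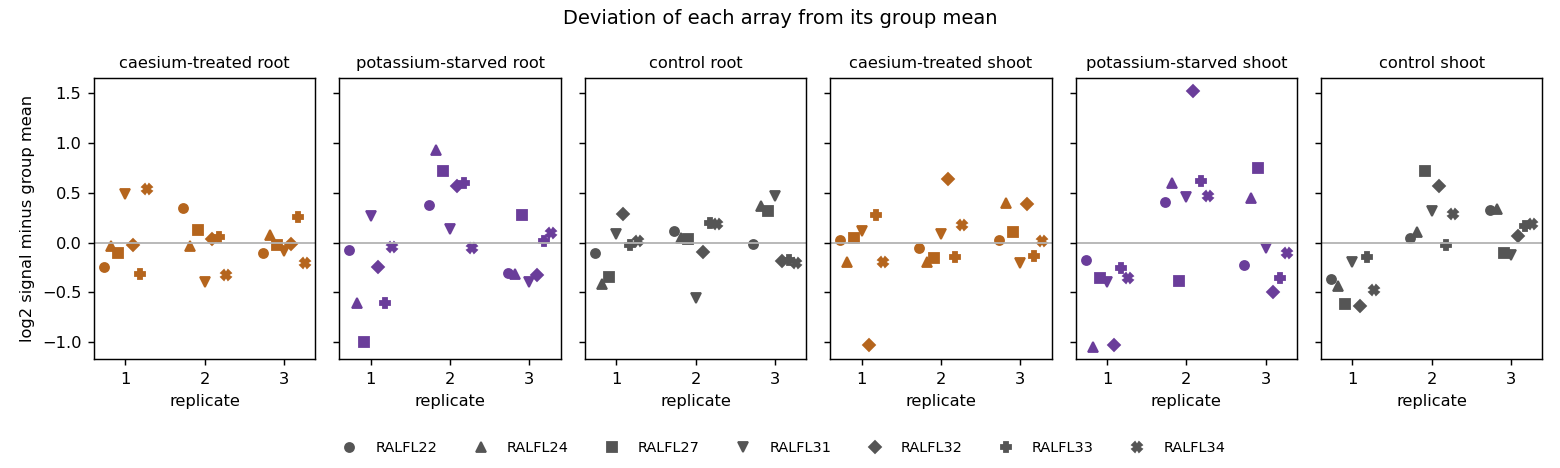
Log2 signal of each array minus the mean of its group, for the 7 RALF-like genes (marker shapes) and the 3 replicates of each of the 6 groups (panels). Replicate 2 of the potassium-starved shoots lies above its group mean for 6 of 7 genes, and replicate 1 of the control shoots lies below it for 7 of 7.

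Genes of families linked to RALF peptides, called pathway genes here, were taken from 5 lists that hold 56 genes, of which 24 had a probe set with a single gene. A place in a list does not show that a gene acts with RALF peptides. The lists held 17 receptor kinases of the FERONIA family, 11 leucine-rich repeat extensins and 4 co-receptors of the LORELEI-like family. They also held 2 proteases listed for precursor processing and 22 intracellular partners and outputs. The co-receptors had 0 probe sets of a single gene. In shoots 10 pathway genes could be tested and in roots 14. Potassium-starved shoots had 1 that rose and 5 that fell against control shoots, beside 11.4% and 16.7% of all probe sets.

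FER, the FERONIA receptor kinase that binds several RALF peptides, read 221, 148 and 284 in potassium-starved shoots, against 446, 438 and 490.4 in control shoots. Every potassium-starved array was lower, and FER fell by 1.12 on the log2 scale (SE 0.228, 2.18-fold lower, adjusted p = 0.00609). THE1, the receptor kinase for RALF34, read 85.6, 34.7 and 64.3 in potassium-starved shoots, against 194, 127 and 183 in control shoots. It fell by 1.52 (SE 0.329, 2.86-fold lower, adjusted p = 0.00829), again without overlap. CML38, a calmodulin-like calcium sensor reported to bind the RALF1 peptide, rose, with 244, 256 and 96.3 in potassium-starved shoots and 24.6, 32.9 and 11.9 in control shoots. Its log2 difference was 3.10 ± 0.481 (adjusted p = 0.0018), a size that is uncertain because only 1 of the 3 control shoot arrays exceeded the level of the rule.

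The other genes that fell were AT2G23200 of the receptor kinase list (log2 -1.05, adjusted p = 0.0122) and, of the extensin list, AT3G24480 (-0.80, 0.026) and AT4G18670 (-0.91, 0.0352). The extensin calls rested on few arrays. AT3G24480 was lost without potassium-starved shoot replicate 2 or control shoot replicate 1 or 3, with an adjusted p of up to 0.101, and when only the arrays of the groups compared were fitted. AT4G18670 was lost without potassium-starved shoot replicate 1 or 2 or control shoot replicate 1 or 3, with an adjusted p of up to 0.146, and also under a common array median, with no filter on low values and when only the arrays of the groups compared were fitted.

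The subtilisin-type protease gene SBT3.5 read 132, 117 and 75.8 in potassium-starved shoots and 87.7, 54.3 and 15.9 in control shoots. The groups overlapped, the log2 difference was 1.31 (adjusted p = 0.0759), and with the replicate block the adjusted p was 0.0365. In caesium-treated shoots SBT3.5 read 152, 176 and 228, above all control shoots, with a log2 difference of 2.11 ± 0.507 (adjusted p = 0.0863, or 0.0283 with the replicate block). Without control shoot replicate 1 it passed in both comparisons, at 0.0248 for potassium-starved and 0.0472 for caesium-treated shoots. In the reported fit, without the block, no pathway gene passed between caesium-treated and control shoots. There THE1 differed by -0.38 (adjusted p = 0.675), CML38 by 0.51 (0.708) and AT3G24480 by -0.39 (0.489).

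Between caesium-treated and potassium-starved shoots 3 pathway genes rose and 1 fell, beside 18% and 8.84% of all probe sets. FER read 401, 493 and 452 in caesium-treated shoots, above the 148 to 284 of potassium-starved shoots, and rose by 1.09 on the log2 scale (adjusted p = 0.00864). THE1 read 170.1, 114 and 105 in caesium-treated shoots and rose by 1.14 (adjusted p = 0.0293), and AT2G23200 rose by 0.94 (adjusted p = 0.0214). CML38 read 47.4, 31.2 and 19.0 in caesium-treated shoots and fell by 2.58 (adjusted p = 0.00552). In this comparison the called receptor kinases were higher and the called RALF-like genes lower. Against control shoots, however, caesium-treated shoots differed by only -0.03 for FER (adjusted p = 0.973) and -0.12 for AT2G23200 (0.896), and THE1 was not called. These rises and the falls under potassium starvation share the potassium-starved arrays. The THE1 call was lost without caesium-treated shoot replicate 1 or 2 or potassium-starved shoot replicate 2 (adjusted p up to 0.106). That of AT2G23200 was lost without caesium-treated shoot replicate 1 or 3 or potassium-starved shoot replicate 1 or 2 (up to 0.0704).

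**Figure D5:**
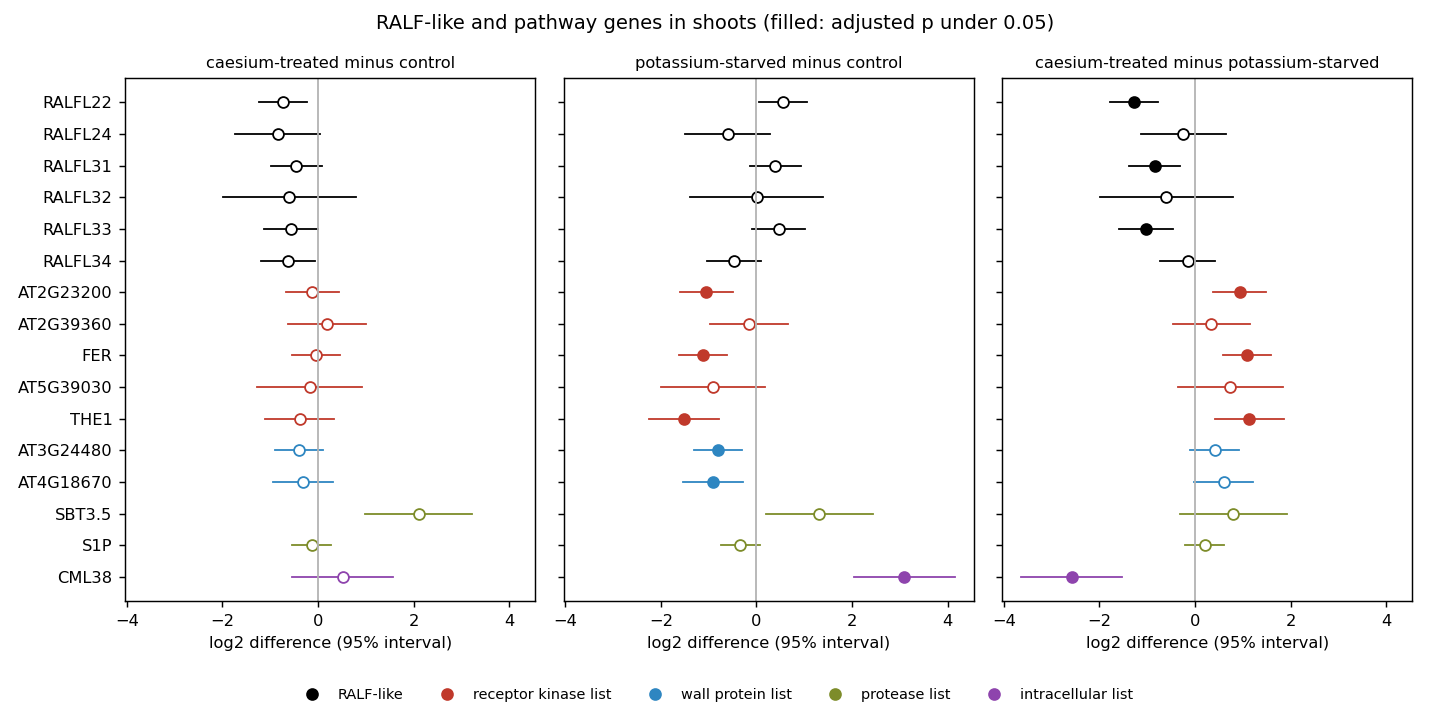
Log2 differences with 95% intervals in shoots for the 6 tested RALF-like genes and the 10 tested pathway genes, coloured by list, with filled points for an adjusted p under 0.05. In potassium-starved minus control shoots, FER, THE1, AT2G23200, AT3G24480 and AT4G18670 lie left of 0 and CML38 right of 0; in caesium-treated minus potassium-starved shoots, RALFL22, RALFL31 and RALFL33 lie left of 0 and FER, THE1 and AT2G23200 right of 0.

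In roots 14 pathway genes were tested, and 0 passed against control roots under either treatment and 1 between the treatments, beside 1.09%, 0% and 4.54% of all probe sets. FER read 602, 621 and 535 in caesium-treated, 591, 415 and 546 in potassium-starved and 484, 635 and 568 in control roots, and its groups overlapped. The smallest p of each list under potassium starvation belonged to THE1 (log2 -0.88, adjusted p = 0.0952), AT2G41970 (-1.01, 0.109), AT4G18670 (-0.51, 0.388) and S1P (0.14, 0.773). Under caesium they belonged to AT5G59700 (0.45, 0.624), AT2G41970 (-0.75, 0.426), AT3G22800 (-0.28, 0.842) and SBT3.5 (0.76, 0.395). THE1 read 139, 93.5 and 96.3 in caesium-treated roots, against 53.2, 49.2 and 57.6 in potassium-starved roots, and was the 1 pathway gene that rose between them (log2 1.02, adjusted p = 0.0352). Without control root replicate 3, THE1 also passed for potassium-starved against control roots (adjusted p = 0.044). Its call between the treatments was lost without 5 of the 6 arrays in turn, all but caesium-treated root replicate 2, with an adjusted p of up to 0.141, and with no filter or with all 18 arrays in the fit.

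The fall of FER in potassium-starved shoots was also tested against its change in roots. The interaction, root minus shoot, was 1.00 ± 0.282 (SE, adjusted p = 0.0386), and it was lost on leaving out 8 of the 12 arrays in turn, with an adjusted p of up to 0.091. Those 8 were replicates 1 and 3 of potassium-starved roots, of control roots and of control shoots, and replicates 1 and 2 of potassium-starved shoots. It was also lost when only the arrays of the groups compared were fitted. For CML38 the interaction was -2.83 ± 0.598 (adjusted p = 0.00923). Its size is uncertain, since only 1 of the CML38 control shoot arrays exceeded the level of the rule. In the caesium interaction 0 of 15 pathway genes passed, beside 0.14% of all probe sets.

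Between organs 15 pathway genes entered the fit, but 6 of them exceeded the level of the rule on fewer than 3 arrays of either roots or shoots. The filter may have favoured a difference there, so their values carry no test. Of the other 9, 2 rose and 2 fell in control roots relative to control shoots, beside 30.6% and 22.5% of all probe sets. Those shares include probe sets that passed the filter through a single organ, so the sets compared are not alike. AT2G23200 of the receptor kinase list averaged 34.8 ± 3.92 in control roots, against 103 ± 24.9 in control shoots (SD, n = 3 each), and fell by 1.54 on the log2 scale (adjusted p = 5.2e-05). S1P averaged 132 ± 19.7 in control roots, with 101 ± 1.41 in control shoots, and was not called (log2 0.37, adjusted p = 0.145).

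The other organ calls were near the threshold and depended on single arrays. CML38 rose by 1.22 (adjusted p = 0.0229, lost without control root replicate 2 or 3 or control shoot replicate 3), with a range of 0.80 to 1.53 over the arrays left out. Only 1 of its control shoot arrays exceeded the level of the rule, so the size of that rise is uncertain. AT2G39360 rose by 0.79 (adjusted p = 0.0408), with a range of 0.51 to 1.08, and was lost without replicate 2 or 3 of either organ, with no filter, and when only the arrays compared were fitted. THE1 fell by 0.75 (adjusted p = 0.0476), a call lost without control root replicate 2 or 3 or control shoot replicate 1 or 3, and with no filter.

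Among the genes seen above the level in roots, AT3G22800 of the extensin list read 221, 326 and 275 in control roots, against 16.7, 21.5 and 17.2 in control shoots. AT5G59700 of the receptor kinase list read 43.1, 40.8 and 49.2 in control roots and 9.67, 2.25 and 4.28 in control shoots. AT2G41970 of the intracellular list read 73.3, 65.9 and 78.0 in control roots and 11.2, 13.1 and 14.1 in control shoots. None of these 3 exceeded the level on any shoot array, and AT5G39030 of the receptor kinase list exceeded it on no root array, with 8.99, 2.03 and 11.6 in control roots and 26.8, 62.8 and 40.3 in control shoots. The other 2 genes without a test, AT5G39020 and AT5G24010 of the receptor kinase list, exceeded it on 9 of 9 root arrays and 2 of 9 shoot arrays each.

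Likeness to the 3 genes with the smallest adjusted p over the treatment comparisons was measured as Pearson's r of log2 signal over the 18 arrays among 8999 candidate probe sets. The arrays share organs and treatments, and these values are given as a description. RALFL22 was most like AT4G28770 (r = 0.956), LBD29 (0.949) and AT1G31050 (0.945). Within roots alone these r values were 0.695, 0.533 and 0.277 and within shoots 0.911, 0.836 and 0.891, over 9 arrays each. RALFL33 was most like AT5G60680 (0.908), AT3G15480 (0.891) and AT3G23325 (0.887), and AT5G60680 kept 0.920 within roots and 0.931 within shoots. RALFL31 was most like AT5G64816 (0.939), AT4G38490 (0.936) and AT5G13470 (0.926).

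RALFL31 and RALFL32 have 10 protein-coding genes between them in the RefSeq table, and in control roots RALFL31 fell and RALFL32 rose relative to shoots. RALFL25 and RALFL26 are direct neighbours, with 0 protein-coding genes between them, and both were under the level of the rule on all 18 arrays. The list of pollen and flower markers had 9 of 19 genes with a probe set and a summed signal of 40.6 to 101 over the 18 arrays, and 2 of the 9 exceeded the rule's level on any array.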

How the data were processed

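The values are linear intensities that the authors deposited, 1 for each probe set, and the submitters' processing notes name MAS5. Its version and settings are not given, and trimmed array means of 100.007 to 100.01 show scaling to a common mean. Because MAS5 subtracts mismatch signal, low intensities are noisy once logged. Of 22810 probe sets 64 controls were left out. In the platform annotation 13513 probe sets have 1 gene, 503 have several and 8730 have none. RALFL22 was matched to the RefSeq table (TAIR10.1) by symbol, since its gene number in the annotation is older. No level of one probe set was set against another's.

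The log2 intensity, without a pseudocount, was tested for each probe set that was above the 40th percentile on 3 or more arrays of a fit. The 9 arrays of an organ were fitted together with limma 3.58.1 in R 4.3.3 (lmFit, eBayes with trend), and organ contrasts and interactions used all 18. Two-sided p-values received Benjamini-Hochberg adjustment over all tested probe sets, and "rose" and "fell" mean an adjusted p under 0.05. The number of arrays limits the precision, as does the noise of low intensities. The script was tested on simulated data.

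The members and lists were chosen with earlier results of these data known. Every kept member is named. Per comparison, the naming rule picks called members and up to 2 others with the smallest p. Of each pathway list it picks called genes or else the one with the smallest p. Differences are given for these, except that uncalled pathway genes are left out between treatments and in interactions. Likeness is given for the 3 members with the smallest adjusted p over the 6 treatment comparisons. Further members shown for their values were chosen after these were seen.

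Replicate numbers come from the sample titles. Deviations of same-numbered arrays correlated at 0.173 to 0.556 in all shoot comparisons, each above 0.1, so the numbers were taken to pair the shoot arrays. In roots they ran from -0.053 to 0.415 and were not all above 0.1. The numbers were therefore not taken to pair the root arrays, though a weaker pairing there remains possible. The reported tests of both organs had no replicate block, which was run only as an alternative. Alternatives were quantile normalization, a common median, no filter, a pseudocount of 16, array weights, a replicate block, other arrays in the fit and each array left out.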

Additional observations from a re-analysis of the deposited data

How the results depend on the processing

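Of 135 recomputed counts of called RALF-like genes, 125 stayed within 1.5 times the reported count. With the replicate block 1 gene was called in potassium-starved against control shoots (RALFL34, lower) and 1 in caesium-treated against potassium-starved roots (RALFL24, higher, adjusted p = 0.0329), against 0 reported in both. The RALFL24 call is in roots, where it is uncertain whether the numbers pair the arrays. The block moved no other count of RALF-like genes by over 1.5 times. Among pathway genes it brought THE1 to 0.0393 in potassium-starved against control roots and SBT3.5 to 0.0375 in caesium-treated against potassium-starved roots. These calls are in roots too, with the same uncertainty. With array weights 1 gene was called in potassium-starved against control shoots (RALFL34), 3 in caesium-treated against control shoots (RALFL22, RALFL33 and RALFL34), 1 in potassium-starved against control roots (RALFL24, -1.34, adjusted p = 0.0217) and 1 in caesium-treated against potassium-starved roots (RALFL24, 1.45, adjusted p = 0.00535). Leaving out single arrays gave 1 to 3 called genes in caesium-treated against potassium-starved shoots, and 0 to 1 in potassium-starved against control roots and in caesium-treated against potassium-starved roots. The organ contrast kept 6 called genes under all its alternatives. Shares of all probe sets called under each alternative are not given here, so these counts have no background beside them. For the gene and comparison pairs the naming rule picks, 1051 values were recomputed, of which 1047 kept their direction and 962 also their side of the threshold. The 4 of these that changed sign were all uncalled. In caesium-treated against potassium-starved shoots, RALFL32 ran from -1.11 to 0.16 and RALFL24 from -0.76 to 0.0588 over the arrays left out, with the sign changing without potassium-starved shoot replicate 2. In potassium-starved against control roots S1P ran from -0.0111 to 0.37, below 0 without potassium-starved root replicate 3. In caesium-treated against control roots AT3G22800 ran from -0.59 to 0.15, above 0 without caesium-treated root replicate 1. Among the other pairs of members, all uncalled, quantile normalization or a common median turned the sign of RALFL27 and RALFL32 in caesium-treated against potassium-starved roots, of RALFL27 in the caesium interaction, and of RALFL33 and RALFL34 in the potassium interaction. Array weights turned the sign of RALFL32 in potassium-starved against control shoots and of RALFL22 in potassium-starved against control roots (0.15 to -0.04). They also turned that of RALFL27 and RALFL32 in caesium-treated against potassium-starved roots. The cause of these changes was not tested. RALFL27 in shoots and the 4 dropped genes were under the level of the rule on every array, and RALFL31 on all but 3 root arrays, so the size of any difference there is uncertain.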
